A study of Mus musculus with 8 samples.

Results

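The 10 tetraspanin genes *Cd9*, *Cd81*, *Cd82*, *Cd151*, *Cd37*, *Cd53*, *Tspan4*, *Tspan7*, *Tspan2* and *Tspan32* were examined in mouse aorta. They were chosen by gene symbol as tetraspanins of the vessel wall and of leukocytes. All 10 were among the 21859 genes counted, each with a single entry, and all 10 were among the 15077 genes that passed the low-count filter. The aortas came from 4 ApoE-/- mice and 4 wild-type (WT) C57BL/6 mice. All 8 mice were males, 40 weeks old, kept on a normal diet and fasted before collection, and each aorta was sequenced as 1 library of stranded, ribodepleted total RNA. The ApoE-/- mice lack apolipoprotein E in every tissue, which slows clearance of remnant lipoproteins and leads to plaques. The whole aorta was extracted, so every value is a mixture over all cells of the vessel and of the tissue attached to it. In such bulk samples, fewer cells of a type and less RNA per cell cannot be told apart.

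Tetraspanins are small proteins that cross the plasma membrane 4 times and carry a large extracellular loop with a conserved Cys-Cys-Gly motif. They bind integrins, immunoglobulin-superfamily proteins and each other, and so gather partners into membrane microdomains that act in adhesion, migration, trafficking and vesicle release. Some members, such as *Cd9*, *Cd81* and *Cd151*, are made by nearly all cells of an artery, whereas *Cd53*, *Cd37* and *Tspan32* are largely restricted to blood cells.

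In CPM, counts scaled to a common library size with TMM factors, the 3 leukocyte members separated the genotypes and the other 7 did not. Those 7 are called vessel wall members here, a label that was not tested. *Cd53*, *Cd37* and *Tspan32* were higher in all 4 ApoE-/- aortas than in any WT aorta, by 3.89-fold, 2.17-fold and 1.76-fold. For *Cd9*, *Cd81*, *Cd82*, *Cd151*, *Tspan4*, *Tspan2* and *Tspan7* the genotypes overlapped, with fold changes between 0.847 and 1.17. With edgeR's quasi-likelihood test and Benjamini-Hochberg adjustment over all genes tested, 0 of the 10 had an adjusted p under 0.05, a threshold that 0.464% of the 15077 genes passed. An unadjusted p under 0.05 was reached by 3 of the 10, all higher, against 11.4% of all genes, 7.19% with higher ApoE-/- values. The same 3 members were those without overlap and with higher ApoE-/- values, a pattern shown by 5.41% of all genes. DESeq2 called 2 of the 10, *Cd53* and *Cd37*, both higher, where it called 4.29% of its genes in all and 2.84% as higher. Of the 10, limma-voom called 0, where it called 29 of the 15077 genes. The median log2 fold change was 1.12 over the 3 leukocyte members, 0.01 over the 7 vessel wall members and 0.05 over all genes tested.

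**Figure D1:**
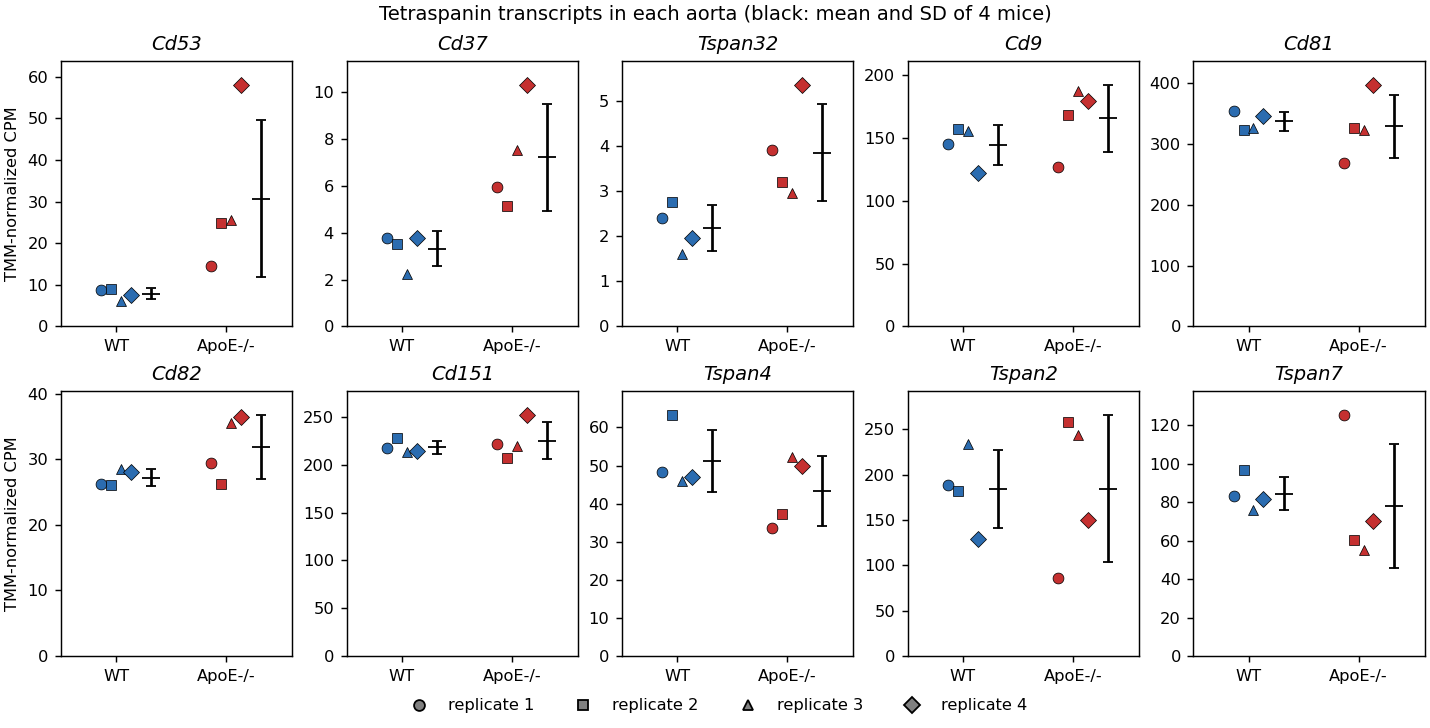
Expression of the 10 tetraspanins in each aorta in CPM (counts scaled to a common TMM-adjusted library size, linear axes from 0), WT in blue and ApoE-/- in red, with 1 symbol per mouse and the mean and SD of 4 mice in black. The ApoE-/- points lie above all WT points for *Cd53*, *Cd37* and *Tspan32* (lowest ApoE-/- values 14.6, 5.12 and 2.96 CPM, highest WT values 9.03, 3.78 and 2.76 CPM) and overlap them for the other 7 genes.

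Each library was checked against its label before the members were compared. *Apoe* had 14.7 to 36.3 CPM in ApoE-/- aortas and 536 to 857 CPM in WT aortas. Between 18375898 and 23940156 read pairs per library were counted on genes. This share separated the genotypes, at 32.27% to 35.61% of read pairs in ApoE-/- libraries and 27.93% to 30.18% in WT libraries, with 50.09% to 54.68% against 56.43% to 57.98% on no gene. Its part in the members whose genotypes did not overlap was not tested. *Myh11*, the smooth muscle myosin heavy chain, reached 1884 to 8224 CPM, so contractile vessel wall was present in each library. ApoE-/- replicate 1 stood apart. It had the lowest summed smooth muscle markers (5583 CPM against 12316 to 22885 CPM in the other 7 libraries) and the highest summed sympathetic neuron markers (4707 CPM against 53.6 to 876 CPM). Summed cardiac muscle markers, a list of 9 genes, were 160 to 344 CPM in ApoE-/- aortas and 419 to 737 CPM in WT aortas. Among them *Myl7* was at 0 in ApoE-/- replicates 2 and 3 and *Sln* in ApoE-/- replicate 3, and both were above 0 in every WT library. The largest single part of that sum was *Ryr2*, with means of 235 and 238 CPM, whereas the other 8 genes were lower without overlap, as were 3.3% of all genes, and the median log2 fold change of the list was -2.77. The part of these tissues in the tetraspanin values was not tested.

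*Cd53* encodes a tetraspanin found on nearly all leukocytes. It lies on chromosome 3 from 106759921 to 106790149 on the minus strand (GRCm38). Its read pairs numbered 359, 567, 588 and 1336 in ApoE-/- replicates 1 to 4, or 14.6, 24.8, 25.6 and 58.0 CPM. WT replicates 1 to 4 had 193, 193, 110 and 158 read pairs, or 8.86, 9.03, 6.09 and 7.56 CPM. All ApoE-/- values lay above all WT values, and replicate 4 was more than 2 times the next ApoE-/- value. The mean was 30.7 ± 18.8 CPM (SD, n = 4) in ApoE-/- aortas and 7.89 ± 1.36 CPM in WT aortas. This gave a log2 fold change of 1.96 (SE 0.40, 95% interval 1.04 to 2.88, adjusted p by edgeR = 0.0754). Its adjusted p was 1.57e-04 in DESeq2. Without ApoE-/- replicate 1 the edgeR log2 fold change of *Cd53* was 2.19 (adjusted p = 0.0132), where 3.91% of genes were called in all and 2.75% as higher. No other library left out gave a call, and without ApoE-/- replicate 4, the highest mouse, the log2 fold change of *Cd53* was 1.46 (adjusted p by edgeR = 0.0818). In limma-voom the adjusted p of *Cd53* was 0.134.

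*Cd37*, a tetraspanin most abundant on B cells, where it restrains IgA production, lies on chromosome 7 from 45233632 to 45239115. Its locus overlaps *Tead2* on the opposite strand and is 25.5 Mb from *Apoe*. The deposited counts are marked as stranded, which would keep these genes apart, but read pairs from *Tead2* were not examined. The ApoE-/- replicates 1 to 4 had 146, 117, 173 and 237 read pairs, or 5.93, 5.12, 7.54 and 10.3 CPM. WT replicates 1 to 4 had 82, 75, 40 and 79 read pairs, or 3.76, 3.51, 2.22 and 3.78 CPM. The genotypes did not overlap, and ApoE-/- replicate 4 was again the highest of the 8. The mean was 7.22 ± 2.28 CPM (SD, n = 4) against 3.32 ± 0.745 CPM. For *Cd37* the log2 fold change was 1.12 (SE 0.28, 95% interval 0.48 to 1.75, adjusted p by edgeR = 0.121), and the DESeq2 adjusted p was 0.00894.

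*Tspan32*, also known as Tssc6 or Phemx, is a blood cell tetraspanin that binds the platelet fibrinogen receptor and limits T cell proliferation. It had the fewest read pairs of the 10, with 96, 73, 68 and 123 in ApoE-/- replicates 1 to 4 and 52, 59, 29 and 41 in WT replicates 1 to 4. In CPM these were 3.9, 3.19, 2.96 and 5.34 against 2.39, 2.76, 1.61 and 1.96. The gap between the genotypes was small, from 2.76 CPM in WT replicate 2 to 2.96 CPM in ApoE-/- replicate 3. The means were 3.85 ± 1.07 and 2.18 ± 0.502 CPM (SD, n = 4). Its log2 fold change was 0.82 (SE 0.27, 95% interval 0.21 to 1.43, adjusted p by edgeR = 0.248), and the gene was not called by DESeq2 or limma-voom.

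The promoters of these 3 genes are shown with that of *Cd81*, because the leukocyte members were higher together in ApoE-/- aortas and *Cd81*, the most abundant member per length, overlapped. All 10 members matched RefSeq (GRCm38.p6), with 16 start sites in all. The 250 bases before the start are given 5′ to 3′ on the strand of the gene. For *Cd37* the RefSeq start lies downstream of the 5′ end of the locus given above, so its window falls within that locus. Capitals mark GAGGAA, the core of sites for the myeloid and B cell factor PU.1 and other ETS proteins, or GGGCGG, the GC box of Sp1, on either strand. The windows are chr3:106790150-106790399 (minus strand) for *Cd53*, chr7:45238840-45239089 (minus) for *Cd37*, chr7:143004796-143005045 (plus) for *Tspan32* and chr7:143052500-143052749 (plus) for *Cd81*.
Cd53: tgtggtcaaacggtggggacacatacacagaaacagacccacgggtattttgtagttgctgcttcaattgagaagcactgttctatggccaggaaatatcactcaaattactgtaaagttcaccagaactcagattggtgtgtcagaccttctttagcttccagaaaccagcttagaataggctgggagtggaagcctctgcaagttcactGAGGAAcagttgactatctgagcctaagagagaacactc
Cd37: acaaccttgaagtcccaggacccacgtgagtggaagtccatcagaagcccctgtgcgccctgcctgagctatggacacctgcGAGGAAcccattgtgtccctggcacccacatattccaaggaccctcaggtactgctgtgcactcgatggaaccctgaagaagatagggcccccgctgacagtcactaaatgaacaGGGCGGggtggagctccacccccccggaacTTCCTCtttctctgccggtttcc
Tspan32: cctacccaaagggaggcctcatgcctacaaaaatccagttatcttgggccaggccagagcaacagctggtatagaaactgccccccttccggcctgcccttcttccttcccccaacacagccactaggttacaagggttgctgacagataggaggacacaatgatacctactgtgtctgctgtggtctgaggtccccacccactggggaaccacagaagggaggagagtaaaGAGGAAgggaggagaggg
Cd81: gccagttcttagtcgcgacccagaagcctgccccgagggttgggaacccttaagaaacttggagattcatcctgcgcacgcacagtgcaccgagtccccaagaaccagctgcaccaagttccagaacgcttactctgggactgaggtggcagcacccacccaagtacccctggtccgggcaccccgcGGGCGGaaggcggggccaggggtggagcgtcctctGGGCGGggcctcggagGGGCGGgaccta
GAGGAA began 39 bases before the start in *Cd53* and 18 bases before it in *Tspan32*. In *Cd37* it occurred at 168 bases and, on the reverse strand, at 23 bases before the start. It was in 1 of the 13 windows of the 7 vessel wall members, a secondary start of *Cd82*, and in 23.3% of 32851 promoter windows of the same length. Counted per gene, GAGGAA was in 1 of the 7 vessel wall members and in 25.9% of all genes. GGGCGG was found 3 times in *Cd81*, once in *Cd37* and in 7 of the 13 vessel wall windows, but in neither *Cd53* nor *Tspan32*. Of all windows, 32.7% held it. By gene, 6 of the 7 vessel wall members and 35.4% of all genes had it in at least 1 window. The CpG dinucleotides numbered 2 in *Cd53*, 1 in *Tspan32* and 8 in *Cd37*, against 3 to 24 in the 13 vessel wall windows and a median of 6 over all windows. A match describes the letters of a window, and binding was not measured.

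The levels of the leukocyte members were set beside lists of markers in the same libraries. All 8 pan-leukocyte genes had a log2 fold change above 0, as did 58% of all genes, and edgeR called *Ptprc* and *Lcp1*, where it called 0.464% of all genes. Both calls were lost without ApoE-/- replicate 3, WT replicate 2 or WT replicate 4, where edgeR called 0 genes. The summed level of the 8 genes was 234 to 502 CPM in ApoE-/- aortas and 85.3 to 122 CPM in WT aortas. Summed macrophage markers (10 genes, all higher without overlap as were 5.41% of all genes, and 1 of them called) were 550, 948, 1242 and 2370 CPM in ApoE-/- replicates 1 to 4 and 294 to 433 CPM in WT aortas. This is the same order of ApoE-/- mice as for *Cd53*, and the pan-leukocyte sums had it too, at 234, 239, 343 and 502 CPM. In WT replicates 1 to 4 the macrophage sums were 433, 356, 294 and 403 CPM. The WT order differed from that of *Cd53*, which was highest in WT replicate 2. Summed B cell markers (8 genes) were 12.9 to 31.7 CPM against 5.32 to 8.47 CPM, with *Fcmr* at 0 in WT replicate 1. Summed T cell markers overlapped, at 10.98 to 17.2 CPM and 7.76 to 11.7 CPM, and so did summed platelet markers, at 21.1 to 55.6 CPM and 20.9 to 31.8 CPM. The part of a larger leukocyte content in the tetraspanin values was not tested.

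The ratio of each leukocyte member to *Ptprc*, which encodes the pan-leukocyte phosphatase CD45, gives its level relative to that gene alone. The 8 pan-leukocyte genes had log2 fold changes of 0.45 to 1.97. The lowest was *Arhgdib*, and the next, *Coro1a* at 1.41, was above *Cd37* (1.12) and *Tspan32* (0.82) but below *Cd53* (1.96). The direction of such a ratio therefore depends on the gene chosen, for *Cd37* and *Tspan32* through *Arhgdib* alone. No other reference was tested. *Ptprc* itself rose from 25.9 ± 3.15 CPM (SD, n = 4) in WT aortas to 73.1 ± 20.7 CPM in ApoE-/- aortas, a log2 fold change of 1.5 (SE 0.20, adjusted p by edgeR = 0.038). That call did not hold with each library left out in turn. On the log2 scale, the ratio of *Tspan32* to *Ptprc* was -4.21 ± 0.28 (SD, n = 4) in ApoE-/- aortas and -3.53 ± 0.22 in WT aortas, a difference of -0.68. All 4 ApoE-/- ratios lay below all 4 WT ratios. An exact two-sided permutation test gave p = 0.0286, a value that 2 groups of 4 cannot go below, and 0.0857 after adjustment over the 6 ratios tested. For *Cd37* the log2 ratio was -3.34 ± 0.11 against -2.95 ± 0.18, a difference of -0.38, again without overlap (exact permutation p = 0.0286, adjusted 0.0857). WT replicate 3, at -3.21, was close to the highest ApoE-/- ratio of -3.25. *Cd53* did not share this direction, with -1.39 ± 0.49 against -1.71 ± 0.13, a difference of 0.32 with overlap (exact permutation p = 0.286, adjusted 0.343). That difference was 0.13 without ApoE-/- replicate 4 and 0.52 without ApoE-/- replicate 1. Neither of the lower ratios passed the threshold after adjustment. With only these 2 of the 6 ratios at the lowest possible p, they could not have passed it. The adjusted values therefore do not tell whether these ratios differ.

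**Figure D2:**
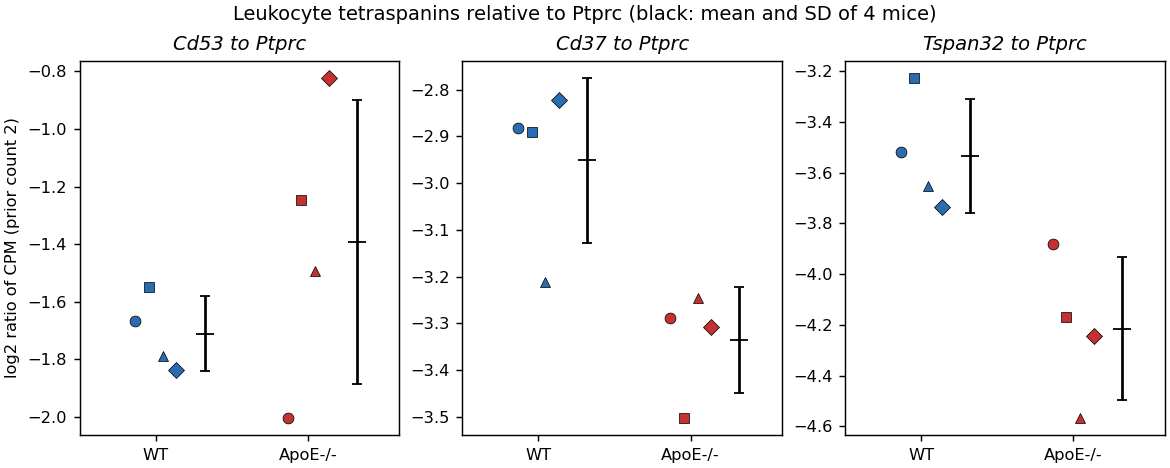
Log2 ratio of the CPM of *Cd53*, *Cd37* and *Tspan32* to that of *Ptprc* in each mouse, with mean and SD of 4 mice in black and an axis for each gene that does not start at 0. For *Cd37* and *Tspan32* the 4 ApoE-/- points lie below the 4 WT points, whereas the *Cd53* points overlap and ApoE-/- replicate 4 is highest at -0.82.

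*Cd9* and *Cd81* are closely related, broadly made tetraspanins that share the immunoglobulin-superfamily partners EWI-2 and EWI-F. *Cd9* acts in sperm-egg fusion, platelets and cell adhesion, and *Cd81* acts in cell adhesion and immune cell signalling. *Cd9* (chromosome 6, 125460266 to 125494791) had 127, 168, 187 and 179 CPM in ApoE-/- replicates 1 to 4 and 145, 157, 155 and 122 CPM in WT replicates 1 to 4. Of the ApoE-/- values, 3 were above all WT values, and replicate 1 was the second lowest of all mice. The log2 fold change of *Cd9* was 0.19 (SE 0.15, adjusted p by edgeR = 0.747), and its 95% interval ran from a 0.903-fold to a 1.45-fold level. *Cd81* (chromosome 7, 143052739 to 143067934) had 269, 326, 322 and 396 CPM against 354, 322, 326 and 345 CPM. Its ApoE-/- values lay on both sides of the WT range. The log2 fold change of *Cd81* was -0.04 (SE 0.14, adjusted p by edgeR = 0.959), with a 95% interval of 0.778-fold to 1.22-fold. The log2 ratio of *Cd9* to *Cd81* was -0.99 ± 0.16 (SD, n = 4) in ApoE-/- aortas and -1.23 ± 0.21 in WT aortas, with overlap (exact permutation p = 0.171, adjusted over the 6 ratios 0.30).

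*Cd151* anchors laminin-binding integrins at basement membranes, and *Cd82* (Kai1) slows cell migration and is known as a suppressor of metastasis. *Cd151* was the least variable member, with 222, 207, 220 and 252 CPM in ApoE-/- replicates 1 to 4 and 218, 228, 213 and 214 CPM in WT replicates 1 to 4. Its 95% interval was the narrowest of the 10, from 0.875-fold to 1.22-fold around a log2 fold change of 0.05 (SE 0.10, adjusted p by edgeR = 0.925). *Cd82* had 29.5, 26.2, 35.5 and 36.4 CPM in ApoE-/- aortas against 26.2, 26.0, 28.5 and 28 CPM in WT aortas. In 3 ApoE-/- mice the level exceeded the highest WT value and in replicate 2 it did not, for a log2 fold change of 0.23 (SE 0.12, adjusted p by edgeR = 0.578). The WT values of *Cd82* and *Cd81* differed little among mice, with coefficients of variation of 4.67% and 4.57%.

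*Tspan4* takes part in the formation of migrasomes, vesicles left behind by moving cells. It begins 3766 bases after the end of *Cd151* on chromosome 7, and the genotypes overlapped for both neighbours. *Tspan4* had 33.5, 37.3, 52.3 and 50 CPM in ApoE-/- replicates 1 to 4 and 48.3, 63.3, 46.0 and 46.9 CPM in WT replicates 1 to 4. Replicates 1 and 2 of the ApoE-/- mice were lower than every WT value, and the other ApoE-/- values were within the WT range. For *Tspan4* the log2 fold change was -0.24 (SE 0.18, adjusted p by edgeR = 0.735), and leaving out WT replicate 2 gave -0.12. Of the endothelial markers, all 10 had a log2 fold change below 0, as did 6330 of the 15077 genes tested, and 6 were lower without overlap, as were 3.3% of all genes, with a summed level of 1991 to 2805 CPM in ApoE-/- aortas and 2787 to 3328 CPM in WT aortas and no marker at 0. Their part in the *Tspan4* values was not tested. *Tspan32* and *Cd81* are neighbours too, 33.1 kb apart on chromosome 7. The genotypes did not overlap for *Tspan32* and overlapped for *Cd81*.

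*Tspan2* is known from myelinating glia and smooth muscle, where it is made by contractile cells. It spread widely within both genotypes, with 86.2, 258, 244 and 150 CPM in ApoE-/- replicates 1 to 4 and 189, 182, 234 and 129 CPM in WT replicates 1 to 4. The group means were nearly equal, 184.5 ± 81.2 CPM (SD, n = 4) in ApoE-/- aortas and 184 ± 42.9 CPM in WT aortas, for a log2 fold change of 0.01 (SE 0.35, adjusted p by edgeR = 0.999). The interval was wide, from 0.579-fold to 1.74-fold. Summed contractile smooth muscle markers (10 genes) were 5583, 22670, 21696 and 13690 CPM in ApoE-/- replicates 1 to 4 and 17341, 17430, 22885 and 12316 CPM in WT replicates 1 to 4. In each genotype the library lowest in *Tspan2* was also lowest in smooth muscle markers, and the highest was also highest. Relative to *Myh11*, *Tspan2* varied far less. Its log2 ratio was -4.82 ± 0.28 (SD, n = 4) in ApoE-/- aortas and -5.04 ± 0.07 in WT aortas (exact permutation p = 0.20, adjusted over the 6 ratios 0.30). The highest ratio, -4.45, was that of ApoE-/- replicate 1. That library also had the highest summed nerve glia markers, 878 CPM against 118 to 661 CPM in the others. The part of glia in the *Tspan2* values was not tested.

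*Tspan7*, an X-linked tetraspanin known from neurons, where it takes part in the trafficking of glutamate receptors, had 125, 60.3, 55.3 and 70.3 CPM in ApoE-/- replicates 1 to 4. WT replicates 1 to 4 had 83.3, 96.6, 76.0 and 81.8 CPM. ApoE-/- replicate 1 was the highest of all 8, and the other 3 ApoE-/- values lay below all WT values. The log2 fold change was -0.12 (SE 0.26, adjusted p by edgeR = 0.922), and without ApoE-/- replicate 1 it was -0.45 (adjusted p = 0.0861). Summed sympathetic neuron markers were 4707, 53.6, 382 and 102 CPM in ApoE-/- replicates 1 to 4 and 474, 876, 243 and 617 CPM in WT replicates 1 to 4. The log2 ratio of *Tspan7* to the endothelial gene *Pecam1* was -2.93 ± 0.92 (SD, n = 4) against -3.06 ± 0.27 (exact permutation p = 0.943, adjusted over the 6 ratios 0.943). The difference of 0.13 turned to -0.33 without ApoE-/- replicate 1. The part of nerve tissue in the *Tspan7* values was not tested.

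**Figure D3:**
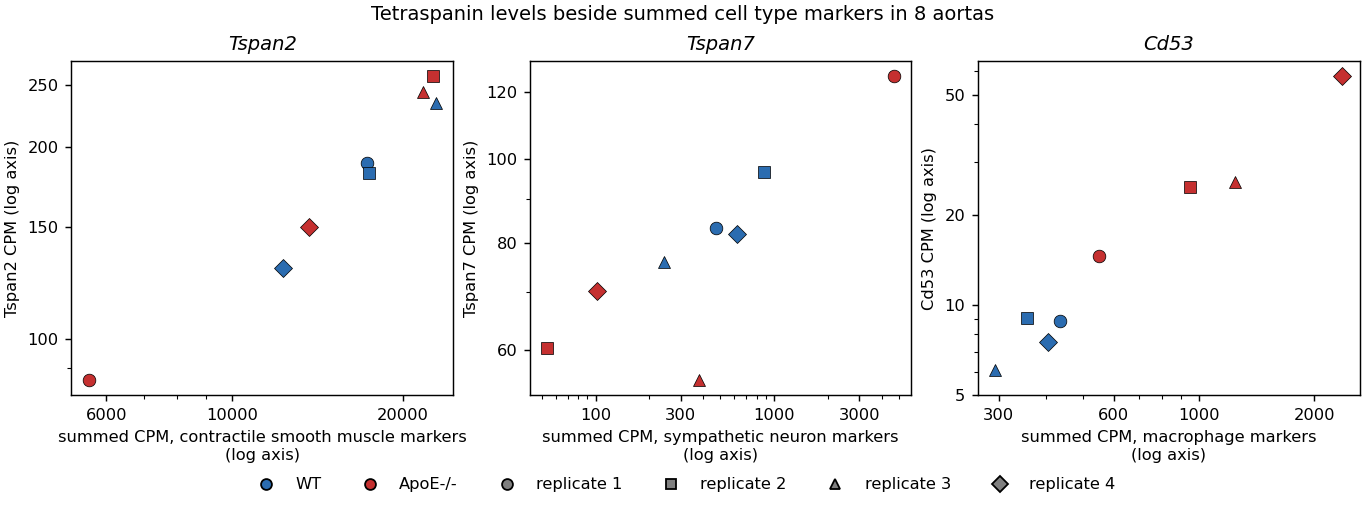
CPM of *Tspan2*, *Tspan7* and *Cd53* in each aorta (vertical, log axis) against the summed CPM of contractile smooth muscle, sympathetic neuron and macrophage markers (horizontal, log axis), WT in blue, ApoE-/- in red, 1 symbol per mouse. ApoE-/- replicate 1 has the lowest *Tspan2* (86.2 CPM) at the lowest smooth muscle sum and the highest *Tspan7* (125 CPM) at the highest neuron sum, and ApoE-/- replicate 4 has the highest *Cd53* (58.0 CPM) at the highest macrophage sum.

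Levels of different genes were compared per length, as CPM per kilobase of exons (RPKM). In WT aortas *Cd81* was first with 117 ± 5.34 RPKM (SD, n = 4), followed by *Cd151* with 79.6 ± 2.53 and *Cd9* with 70.7 ± 7.83 RPKM. *Tspan2* had 38.6 ± 9.01 RPKM and *Tspan4* 23.5 ± 3.75 RPKM, and the WT mice of these neighbours overlapped. *Tspan7* and *Cd82* had 11.95 ± 1.23 and 9.04 ± 0.42 RPKM. The leukocyte members came last, *Cd53* at 4.53 ± 0.78, *Cd37* at 0.94 ± 0.21 and *Tspan32* at 0.35 ± 0.08 RPKM. The WT mice of all neighbours in this order other than *Tspan2* and *Tspan4* were apart. In ApoE-/- aortas *Cd53* averaged 17.65 ± 10.8 RPKM and stood at place 6 where it had place 8 in WT aortas, above *Tspan7* and *Cd82*, with overlapping values. With the longest transcript as length in place of all exons, 6 of the 10 kept their place in WT aortas, since *Cd9* changed places with *Cd151* and *Cd82* with *Tspan7*.

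For each member, the 3 genes with the most similar pattern were found by Pearson's r of log2 CPM over the 8 libraries. For *Cd53* they were *Marchf1* (r = 0.997), *Tyrobp* (0.995) and *Cd300c2* (0.994). For *Cd37* they were *Nradd* (r = 0.996), *Rac2* (0.991) and *Arhgap30* (0.988), and for *Tspan32* they were *Map4k1* (0.966), *Ccr2* (0.963) and *Tnfrsf13b* (0.958). *Tspan2* was most like *Pygm* (r = 0.996), *Flna* and *Tbx18* (0.995 each). *Tspan7* was most like *Morn2* (r = 0.981), *Akap7* and another tetraspanin, *Tspan13* (0.973 each). The matches of *Cd9* were *Tubb6* (0.980), *P4hb* (0.978) and *Emp3* (0.976), and those of *Cd81* were *Tm2d1* (0.971), *Pttg1ip* (0.964) and *Cd93* (0.960). Those of *Cd82* were *Nuak2* (0.961), *H2ac15* (0.940) and *Sidt2* (0.937). *Cd151* was most like *Antxr2*, *Ebi3* (0.940 each) and *Smim7* (0.932), and *Tspan4* most like *Vwf* (0.904), *Zfp951* (0.902) and *Wnt5b* (0.900). These values describe 8 libraries that share their normalization, and each was picked as the highest among all genes tested.

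The rest of the family was read from a list of 22 further tetraspanins. Of these, 18 were tested, *Tspan10*, *Upk1b* and *Prph2* had too few read pairs, and *Tspan19* was not analysed here. By edgeR, 0 of the 18 had an adjusted p under 0.05, against 0.464% of all genes, and 2 had an unadjusted p under 0.05 against 11.4% of all genes. DESeq2 and limma-voom also called 0 of the 18, where DESeq2 called 4.29% of its genes and limma-voom 29 of 15077. The median log2 fold change of the 18 was 0.16. *Tspan1*, a tetraspanin of epithelia, was the only one of the 18 whose genotypes did not overlap, a pattern with lower ApoE-/- values that 3.3% of all genes showed. It had 0.89, 1.09, 0.83 and 0.61 CPM in ApoE-/- replicates 1 to 4 and 1.56, 1.5, 1.77 and 1.24 CPM in WT replicates 1 to 4, from 14 to 34 read pairs per library (log2 fold change -0.82, SE 0.24, adjusted p by edgeR = 0.197). The tetraspanins that carry the metalloprotease *Adam10* to the cell surface, *Tspan5*, *Tspan14*, *Tspan15*, *Tspan17* and *Tspan33*, had log2 fold changes of -0.25 to 0.44. *Tspan10*, of the same group, was below the filter with 2 to 6 read pairs in each ApoE-/- library and 0 to 1 in each WT library. None of these 5 or *Adam10* had an edgeR adjusted or unadjusted p under 0.05, or a DESeq2 call, and for all 6 the genotypes overlapped. Without ApoE-/- replicate 1 the 5 tetraspanins were all below 0. *Tspan33* then had a log2 fold change of -0.26 in place of 0.44, *Tspan17* -0.13 in place of 0.39 and *Tspan15* -0.88 in place of -0.23 (adjusted p by edgeR = 0.067 for *Tspan15*), and the direction of *Tspan33* and *Tspan17* rested on that library.

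**Figure D4:**
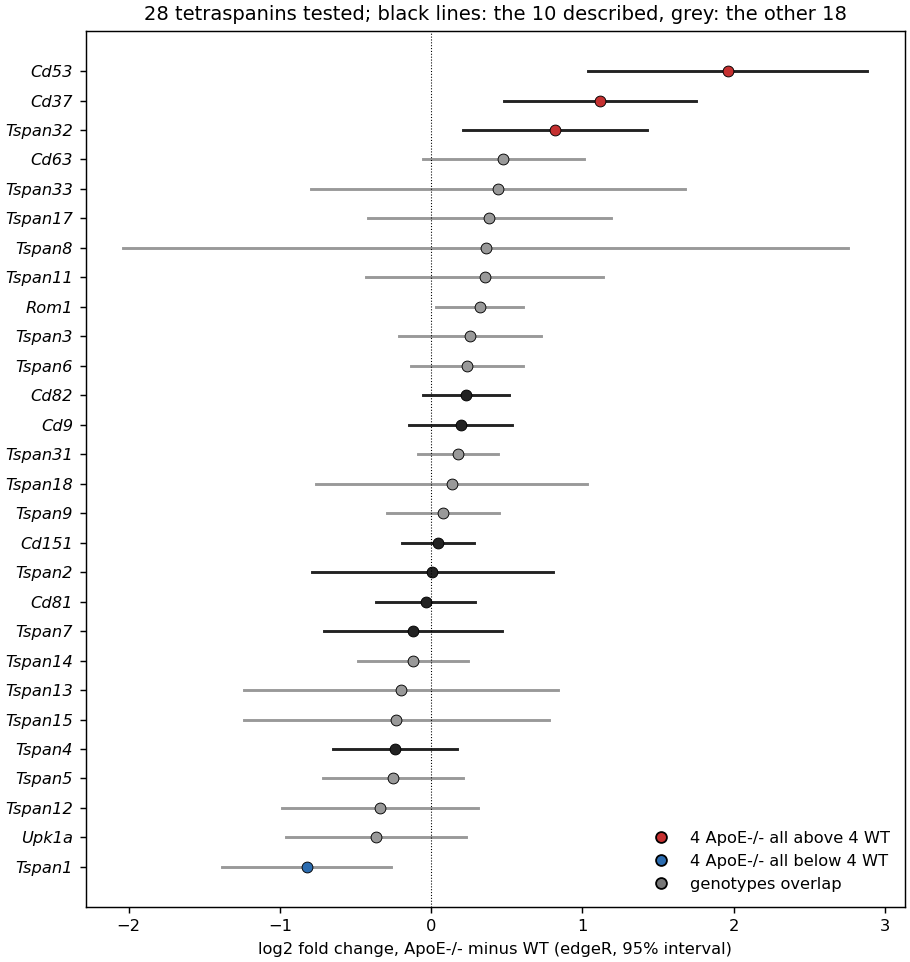
Log2 fold change between ApoE-/- and WT aortas for 28 tetraspanins, with 95% intervals from edgeR, black lines for the 10 genes described and grey lines for the other 18. *Cd53* (1.96), *Cd37* (1.12) and *Tspan32* (0.82) are at the top in red, with all ApoE-/- mice above all WT mice, and *Tspan1* (-0.82) is at the bottom in blue.

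Proteins that sit beside tetraspanins in the membrane were taken from a list of 17, of which 16 were tested and *Clec7a* was not analysed here. By edgeR 0 of the 16 had an adjusted p under 0.05 (0.464% of all genes) and 4 had an unadjusted p under 0.05 (11.4% of all genes). DESeq2 called 2 (4.29% of its genes) and limma-voom 0 (29 of 15077 genes). *Vcam1* encodes an adhesion molecule that gathers with *Cd9* and *Cd151* at the endothelial docking site of leukocytes. It had 169, 292, 541 and 420 CPM in ApoE-/- replicates 1 to 4 and 68.3, 106, 91.0 and 80.1 CPM in WT replicates 1 to 4. The genotypes did not overlap, and the log2 fold change was 2.04 (SE 0.35, adjusted p by edgeR = 0.0526, DESeq2 adjusted p = 1.67e-06). *Igsf8*, which encodes EWI-2, the partner of *Cd9* and *Cd81*, had 55.8, 37.9, 46.4 and 42.4 CPM against 31.8, 35.2, 32 and 33.8 CPM. Its genotypes did not overlap either, a pattern with higher ApoE-/- values that 5.41% of all genes shared with *Vcam1* and *Igsf8*, with a log2 fold change of 0.46 (SE 0.13, adjusted p by edgeR = 0.171, DESeq2 adjusted p = 0.0468). The 14 other partners, among them the integrin subunits *Itgb1*, *Itga3* and *Itga6*, overlapped between genotypes.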

How the data were processed

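Aortic RNA from 4 ApoE-/- and 4 WT mice was sequenced as paired reads, 1 library per mouse. The authors deposited counts of read pairs per gene, not normalized; the submitters' processing notes name TopHat2, HTSeq and GRCm38 (mm10), with versions and gene annotation not given in the sources used here. The deposited counts are marked as unique and stranded. Read pairs on no gene were left out.

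Counts were tested with edgeR 4.0.16 (filterByExpr, TMM, robust quasi-likelihood F-test, all 8 libraries, genotype as the only term) in R 4.3.3, with Benjamini-Hochberg adjustment over the 15077 genes kept and a threshold of 0.05. CPM used TMM library sizes, and 95% intervals came from the fit. Ratios were compared by exact two-sided permutation over 70 assignments (scipy 1.17.1). Alternatives were DESeq2 1.42.0, limma-voom (limma 3.58.1), other size factors and filters, a replicate block and leaving out each library. Exon lengths came from GENCODE M21, in which 21191 of the 21859 identifiers had the same version and 626, *Tspan4* among them, another version. Beyond the 10 members, tetraspanins and partners were to be named with values if called by edgeR or without overlap, together with *Apoe*, reference and marker genes and the 3 genes most similar to each member. The members of the *Adam10* group, the integrins *Itgb1*, *Itga3* and *Itga6*, and *Cd63* fall outside that rule and were named after their values were seen. The members and gene lists were chosen with earlier results of these data known.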

Additional observations from a re-analysis of the deposited data

Results flagged for a closer look

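In 32 groups of 4 mice, the gap of the highest or lowest mouse was compared with Dixon's 95% critical value, which chance would exceed in about 1.6 groups, and 2 groups exceeded it. *Tspan4* in WT replicate 2, at 63.3 CPM against 46.0 to 48.3 CPM in the other WT mice, had a gap of 0.870 of the group's range. The log2 ratio of *Tspan7* to *Pecam1* in ApoE-/- replicate 1, at -1.57, had a gap of 0.849. That library also had the highest summed sympathetic neuron markers, 4707 CPM, and their part in the ratio was not tested.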

How the results depend on the processing

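Of 160 fold changes of members under alternatives, 148 kept their direction and their side of the threshold. DESeq2 called 721 genes, 2 of them members (*Cd53* and *Cd37*) and 2 partners (*Vcam1* and *Igsf8*), against 70, 0 and 0 by edgeR, and limma-voom called 29. With 1 library left out, edgeR called 0 to 593 genes, 0 to 1 members, 0 to 2 other tetraspanins and 0 to 1 partners, each highest value without ApoE-/- replicate 1. Leaving out ApoE-/- replicate 3, WT replicate 2 or WT replicate 4 gave 0 genes. The direction of members close to 0 turned. The log2 fold change of *Tspan2* was -0.087 in limma-voom, -0.012 with upper-quartile factors and, with 1 library left out, -0.20 to 0.25. With 1 library left out that of *Cd81* was -0.14 to 0.048, of *Cd151* -0.012 to 0.084, of *Tspan7* -0.45 to 0.015, of *Tspan4* -0.34 to -0.12 and of *Cd53* 1.46 to 2.19. The difference in the log2 ratio of *Tspan7* to *Pecam1* was -0.33 to 0.33, the lowest without ApoE-/- replicate 1, and the other ratios kept their direction. With the longest transcript as length, 6 members kept their place. The causes were not tested.

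Replicate numbers are shared between genotypes but name different mice, and deviations of same-numbered mice correlated at -0.45 to 0.32, so the numbers were not taken as pairs. With the number as a replicate block edgeR called 2 genes and 0 members, and *Tspan2* was at -0.080. *Tspan32* had as few as 29 read pairs in a library, and p-values rest on 4 mice per genotype.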

Other observations

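Among the other tetraspanins, *Cd63*, chosen after its values were seen, and *Tspan13* were called by edgeR without ApoE-/- replicate 1, where 3.91% of genes were called. *Cd63*, a tetraspanin of late endosomes and exosomes, had 17.1, 30.1, 39.1 and 34.1 CPM in ApoE-/- replicates 1 to 4 and 20.2 to 23.7 CPM in WT aortas. Replicate 1 was the lowest of the 8 and the other ApoE-/- mice were above all WT mice. Its log2 fold change was 0.48 (edgeR adjusted p = 0.516) with all libraries and 0.67 (adjusted p = 0.026) without that one. *Tspan13* had 112, 27.7, 29.3 and 33.9 CPM in ApoE-/- replicates 1 to 4 and 52.6 to 66.3 CPM in WT aortas, so replicate 1 was the highest and the other ApoE-/- mice the lowest. Its log2 fold change was -0.20 (edgeR adjusted p = 0.928) with all libraries and -0.94 (adjusted p = 0.00871) without that one.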
